A study of Homo sapiens with 42 samples.

Results

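A small set of open chromatin sites was found in nearly every library of this series, whatever the cells had been given. How many such sites there were depended on the libraries with the fewest peaks (below). ATACseq, in which a transposase cuts and tags accessible DNA for sequencing, was run on 42 libraries of MCF10A, an established epithelial line from human breast that does not form tumours. The peaks of all libraries on chromosomes 1 to 22 and X were merged where they overlapped by at least 1 bp, and sites were selected on these peak calls alone: those with a peak in at least 41 of the 42 libraries were kept. There were 1323 such sites among 167085 merged sites, of which 556 had a peak in all 42 libraries and 767 in 41. They are called constitutive sites here. That name refers only to the peak calls that chose them.

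Cells were left to attach and were then held in a medium without EGF and insulin before ligand was added. CTRL cells (4 libraries) were taken at 0 h, and their treatment label reads PBS at 0 h. PBS, the vehicle, was given for 24 h or 48 h (3 libraries each). EGF was given at 10 ng/ml (4 libraries at each time), HGF at 40 ng/ml, OSM at 10 ng/ml, IFNG at 20 ng/ml with EGF (IFNG_EGF) and TGFB at 10 ng/ml with EGF (TGFB_EGF), with 3 libraries for each of these at each time. All groups share the serum, hydrocortisone and cholera toxin of the medium, and all come from 1 cell line. Bulk ATACseq does not separate how many cells open a site from how far each cell opens it.

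Chromatin at the promoters of genes that most cells use is kept free of nucleosomes by bound transcription factors and the transcription machinery. NF-Y, a trimer that binds the CCAAT box, and the SP and ETS families are known for binding such promoters, while AP-1, a dimer of FOS and JUN proteins, is known for binding distal enhancers of epithelial cells downstream of growth factor signalling. Alpha satellite DNA makes up centromeres, and short tandem repeats make up telomeres. Copies of mitochondrial DNA lie scattered in the nuclear genome, and short reads from mitochondria can align to them.

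The constitutive sites were put into 6 classes by sequence and position. Promoter sites (610, 46.1%) had their summit within 1000 bp of the start of a protein-coding transcript. Single-copy distal sites (413) had a central window, 100 bp on each side of the summit, whose words of 31 bases were found once in the genome at the median. Alpha satellite sites numbered 114, telomeric repeat sites 12, sites whose words lie mostly in mitochondrial DNA 7, and other distal sites of repeated words 167. The main results follow sequences chosen to show motifs counted at the promoter and single-copy distal sites and the repeats that made up the rest.

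Promoter sequences are shown for BPGM, RCN2 and ATP5F1B, which were among the 10 promoters of highest enrichment and hold in capitals the NF-Y letters CCAAT or their reverse complement ATTGG. Each runs 5′ to 3′ on the strand of the gene, from 100 bases before the summit and no further than the transcription start, in build hg38. BPGM makes 2,3-bisphosphoglycerate in red cells and lies at chr7:134646622-134646810 on the plus strand. RCN2, a calcium-binding protein of the endoplasmic reticulum, is shown at chr15:76931580-76931737 on the plus strand, and ATP5F1B, the beta subunit of mitochondrial ATP synthase, at chr12:56646030-56646230 on the minus strand.
BPGM: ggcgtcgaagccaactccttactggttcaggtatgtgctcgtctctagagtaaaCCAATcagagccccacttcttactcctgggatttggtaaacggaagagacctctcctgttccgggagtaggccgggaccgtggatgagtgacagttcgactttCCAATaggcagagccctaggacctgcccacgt
RCN2: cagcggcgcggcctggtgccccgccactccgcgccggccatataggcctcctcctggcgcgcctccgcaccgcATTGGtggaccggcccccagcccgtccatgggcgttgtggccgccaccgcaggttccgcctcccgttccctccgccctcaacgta
ATP5F1B: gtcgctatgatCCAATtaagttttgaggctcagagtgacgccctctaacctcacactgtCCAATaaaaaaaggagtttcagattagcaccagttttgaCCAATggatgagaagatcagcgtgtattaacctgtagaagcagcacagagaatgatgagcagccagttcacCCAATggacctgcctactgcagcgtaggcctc
The BPGM window held 2 matches, the RCN2 window 1 and the ATP5F1B window 4.

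Distal single-copy sequences are shown for the introns of TENM2 (chr5:167759597-167759717), a teneurin adhesion protein, and VMP1 (chr17:59829389-59829509), a vacuole membrane protein whose gene is followed by MIR21. Both sites were higher with EGF than with PBS (below), and the AP-1 letters TGANTCA are in capitals on the plus strand of hg38.
TENM2 intron: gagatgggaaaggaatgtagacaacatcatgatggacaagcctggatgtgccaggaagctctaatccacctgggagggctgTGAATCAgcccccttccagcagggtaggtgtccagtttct
VMP1 intron: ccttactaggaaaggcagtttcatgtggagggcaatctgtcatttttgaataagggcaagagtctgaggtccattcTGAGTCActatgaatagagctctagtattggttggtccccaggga

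Repeat sequence is shown for the alpha satellite of highest enrichment (chr17:26603828-26604000), on the plus strand.
Alpha satellite: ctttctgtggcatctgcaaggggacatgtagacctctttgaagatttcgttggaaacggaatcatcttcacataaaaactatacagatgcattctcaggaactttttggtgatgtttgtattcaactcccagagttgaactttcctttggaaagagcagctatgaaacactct

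Sequences like mitochondrial DNA are shown for 3 sites, at chr13:109424173-109424293, chr1:631940-632060 and chr17:22521362-22521482. The first and the second were 100% identical to the mitochondrial genome over 121 bases. In the third, capitals mark the 12 bases that differ from it, which leaves 90.1% identity.
Chromosome 13 copy: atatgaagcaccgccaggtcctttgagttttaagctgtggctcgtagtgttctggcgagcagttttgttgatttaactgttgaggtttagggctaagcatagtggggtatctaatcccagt
Chromosome 1 copy: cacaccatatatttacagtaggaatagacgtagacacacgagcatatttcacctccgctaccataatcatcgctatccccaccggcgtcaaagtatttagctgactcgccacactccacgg
Chromosome 17 copy: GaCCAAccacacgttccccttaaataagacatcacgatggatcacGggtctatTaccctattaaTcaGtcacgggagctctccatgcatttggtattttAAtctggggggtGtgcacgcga

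Libraries differed widely in quality. They held 4217 to 113805 peaks (median 68373), and 4 of them had far fewer than the next, with 11798: TGFB_EGF 48 h replicate B (4217 peaks), TGFB_EGF 24 h replicate C (5760), IFNG_EGF 48 h replicate C (6742) and TGFB_EGF 24 h replicate B (7540). The same 4 libraries lacked 317, 100, 235 and 52 of the 1323 sites, and each of the other 38 had at least 1307. So 3 of the 6 TGFB_EGF libraries and 1 of the 6 IFNG_EGF libraries are of this kind, and the comparisons of those groups with EGF are also given without them. A site could lack a peak in only 1 library, so the 4 libraries largely set which sites were kept. Leaving out TGFB_EGF 48 h replicate B alone gave 2046 sites instead of 1323. The files hold no read counts. The background coverage recovered from the peak columns ran from 0.817 to 1.36 fragments per base and was 1.05 to 1.26 in the 4 libraries. Of 16 markers of basal mammary epithelium 14 had a peak at an annotated start in at least 21 of the 42 libraries. Among them LAMA3, a laminin chain, had a constitutive site, KRT6A had a peak in 38 libraries and KRT5 in 31, while the other two, KRT14 and TP63, had one in 10 and in 0 libraries. Of 16 markers of other cell types 14 had no peak in any library, while CD68 had one in 40 libraries and COL1A2 in 7.

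Promoter share rose with the number of libraries in which a site was called. It was 3.49% of the sites called in 2 to 10 libraries, 5.57% in 11 to 20, 11.2% in 21 to 30 and 33.99% in 31 to 40, against 46.1% of the constitutive sites. Counting the starts of genes of every biotype gave 52.8%. The share then dropped at the end of the range, from 51.4% at 41 libraries to 38.8% at 42. Distal repeats made up that drop: 41.01% of the sites called in 42 libraries had repeated words, against 10.3% at 41 and 7.64% at 40. Among sites called everywhere, 48.2% were intergenic.

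**Figure D1:**
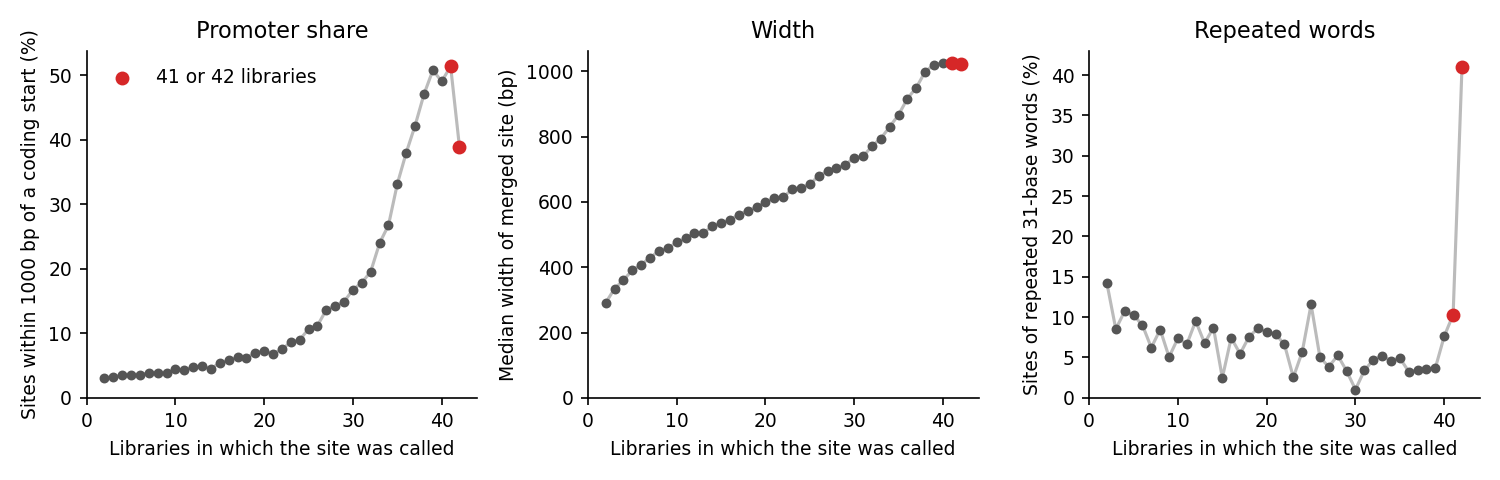
Share of merged sites at protein-coding promoters (left), median width of the merged site in bp (middle) and share of sites made of repeated 31-base words (right) against the number of libraries in which a site was called. Each point is all sites with that number (every 20th site for the repeated words at fewer than 40 libraries), and the red points are the constitutive sites, whose promoter share was 51.4% at 41 libraries and 38.8% at 42.

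Width rose in the same order, with medians of 361, 537, 667 and 877 bp in those 4 bands and 1024 bp at the constitutive sites. Merging over more libraries widens a site by itself, so the width of single peaks is the fairer value: the widest peak of a library in a constitutive site had a median of 700 bp. Promoter sites were the widest class (median 1186 bp) and alpha satellite sites among the narrowest (553.5 bp). Sites just inside and just outside the threshold were alike in level. Fold enrichment, which is the height of a peak over its local background as the peak caller wrote it in column 7, was averaged over libraries as a geometric mean, and these means had medians of 10.3 at the 1087 sites called in 40 libraries, 10.7 at 41 and 10.8 at 42.

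Genes at the 610 promoter sites numbered 740, which is 3.71% of 19962 protein-coding genes, and 124 sites (20.3%) were shared by the starts of more than 1 gene, against 10.8% of the 14023 promoter sites called in 2 to 40 libraries. Summits lay upstream of the start at 81.1% of the constitutive promoters (median position -98.5 bp) and at 64.5% of the other promoters (median -32.0 bp). GC content had medians of 65.2% and 67.2%.

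Sequence letters were counted in the same sets of promoters. Within 100 bp of the summit, 55.7% of the constitutive promoters held the NF-Y letters, against 26.4% of the other promoters and 32.1% of the promoters called in 31 to 40 libraries. The SP letters GGGCGG were found at 65.6%, 57.5% and 66.2% of these sets in the same order, so that the constitutive promoters were close to those called in 31 to 40 libraries, and the ETS letters CCGGAAG at 10.8%, 12.3% and 16.6%. TATA letters were found at 2.62% of the constitutive promoters. The NF-Y share was 47.3% at promoters called in 40 libraries, just outside the threshold, 52.3% at 41 and 62.04% at 42. The higher NF-Y share was thus not particular to the constitutive promoters, but rose across the threshold. Measured from the transcription start, NF-Y letters were densest between -80 and -60 bp in both sets, at 17.2 matches per 100 constitutive promoters and 7.16 per 100 other promoters. The windows of BPGM, RCN2 and ATP5F1B printed above are examples. These shares describe letters and not bound factors, and both strands were searched.

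**Figure D2:**
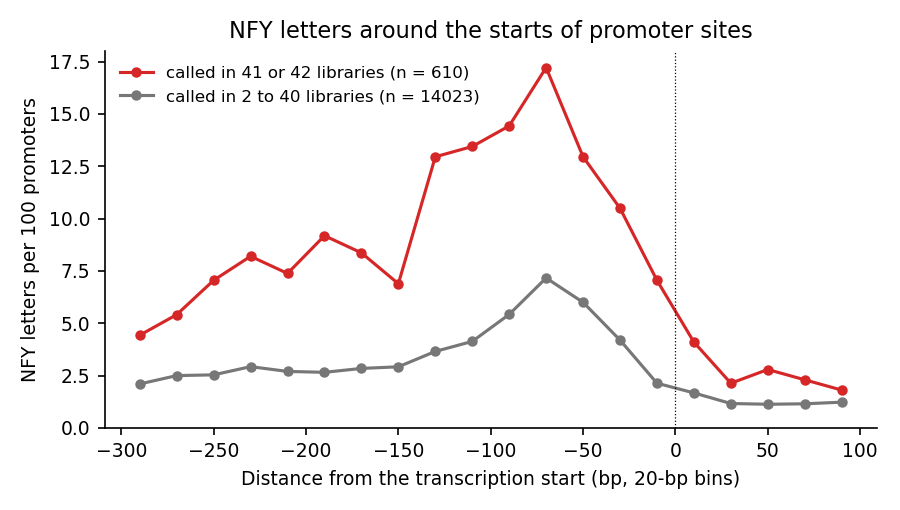
Number of NF-Y letter matches per 100 promoters (vertical axis) in 20-bp bins of distance from the transcription start (horizontal axis, bp; negative is upstream) for the 610 constitutive promoters (red) and the 14023 promoter sites called in 2 to 40 libraries (grey). Both curves peak between -80 and -60 bp, at 17.2 and 7.16.

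SPATC1L, a spermatogenesis-associated gene, had the highest mean fold enrichment over libraries among promoters (22.5), and its window has words found 4 times in the genome. GOLPH3L, a Golgi phosphoprotein, followed at 16.5, BPGM at 15.96, EFL1, a ribosome assembly GTPase, at 15.7, KIFAP3, a kinesin-associated protein, at 15.4, and RCN2 at 15.2. ZNF286A (15.005), TCTN3 (14.7), ATP5F1B (14.6) and KLHL12 (14.5) completed the 10. At BPGM, the 4 CTRL libraries read 21.1, 18.7, 18.9 and 17.4. Its lowest, median and highest values were 12.7, 16.8 and 21.4 with PBS, 18.2, 19.1 and 21.8 with EGF, and 7.64, 8.41 and 16.5 with TGFB_EGF. In 4 of the 6 TGFB_EGF libraries BPGM read 7.64 to 8.57, below every CTRL, PBS and EGF library, while CTRL, PBS and EGF overlapped. Of those 4, 3 are libraries of few peaks, and the TGFB_EGF libraries not of that kind read 16.5, 8.25 and 15.5 at BPGM. At that promoter the ratio to the library median was 1.09 to 1.43 with TGFB_EGF and 1.47 to 1.74 with EGF.

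Gene groups were counted by the genes with a constitutive site at their start. Splicing factors had constitutive sites at 6 of 47 genes, with means of 12.8 at HNRNPC, 11.7 at HNRNPH1, 11.7 at SNRPE and 10.5 at HNRNPR. Chaperones and stress genes had 5 of 34, among them DNAJC3 (13.1), DNAJB11 (11.4), CCT6A (10.2) and HSP90B1 (10.2), the endoplasmic reticulum HSP90. Ribosomal proteins had 3 of 79 (RPS3A, RPS29 and RPL7), respiratory chain and ATP synthase genes 3 of 53 (ATP5F1B, ATP5PO and ATP5MC1), and proteasome subunits 3 of 31 (PSMC4, PSMA5 and PSMD4). Replication-dependent histones had 3 of 59, translation factors 2 of 36, cell cycle genes 1 of 32 (MCM3, 13.8) and common reference genes 1 of 22 (YWHAZ, 7.83). The share over all protein-coding genes, with or without a peak at their start, was 3.71%.

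Genes of the signalling pathways in the design had sites as well. TGF-beta response genes had 3 of 15: ITGAV, the integrin alpha V chain (10.8), SKIL, a SMAD co-repressor (9.84), and BHLHE40, a transcriptional repressor (6.38). OSM and STAT3 response genes had 2 of 14, JAK2 and STAT3 (both 10.2), immediate-early and AP-1 genes 3 of 37 (KLF5, ATF3 and IER5), interferon response genes 1 of 18 (STAT2, 11.9) and growth factor response genes 1 of 14 (ETV5, 11.2). Basal mammary markers had 2 of 16 and markers of other cell types 0 of 16. These counts are small, and the share over all protein-coding genes, silent ones included, was 3.71%. The lists were drawn up with earlier results of these data known, so no test was made of them.

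Single-copy distal sites were AT-richer and poorer in CpG than promoters, with a median GC of 51.2% and a CpG ratio of 0.236 observed over expected, against 0.852 at promoters. There were 179 in introns and 231 in intergenic DNA, and their median distance to a protein-coding start was 40633 bp. AP-1 letters lay within 100 bp of the summit at 226 (54.7%), as in the TENM2 and VMP1 windows above, against 42.2% of 5232 other single-copy distal sites and 50.6% of those called in 31 to 40 libraries. Letters of CTCF, the insulator protein, were found at 1.94% of them, at 6.10% of the 5232 sites and at 2.13% of those called in 31 to 40 libraries, a share close to that of the constitutive sites. Starts of noncoding genes lay within 1000 bp of 89 of the 713 distal sites. By type, 55 distal sites lay at lncRNA genes, 21 at small nuclear RNA genes and 8 at tRNA genes, and a site can be at more than 1 type. At chr17:43251498-43252310, next to a gene of U2, a spliceosomal RNA, in an intron of CCDC200 and with words found 12 times in the genome, the mean enrichment was 29.1.

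Alpha satellite sites lay on 14 chromosomes, most often 5 (22 sites), 1 and 19 (19 each), 10 (17) and 17 (15). Their words were found 848.5 times in the genome at the median, and up to 5719 times. Pileup at their summits was low (median 26 fragments) over a background near 1 (1.41), while at promoters it was 67 fragments over 4.49. Enrichment was thus of the same order in both classes, 10.8 and 11.8 at the median. At the alpha satellite of chr17:26603570-26604658, the CTRL libraries read 32.6, 35.8, 28.7 and 29.3, and the lowest, median and highest were 33.8, 38.7 and 40.7 with TGFB_EGF and 27.7, 31.3 and 39.6 with EGF. TGFB_EGF and EGF overlapped there, and without the libraries of few peaks TGFB_EGF read 33.8, 40.5 and 34.8. The SD of the summit position between libraries had a median of 14.4 bp at alpha satellites, 37.5 bp at single-copy distal sites and 46.9 bp at promoters.

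Telomeric repeats gave 12 sites, all called in 42 libraries and 10 of them within 20000 bp of a chromosome end. Their median enrichment of 22.8 was the highest of the 6 classes.

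Copies of mitochondrial DNA gave the tallest pileups. The 4 sites near the start of chromosome 1, the first at chr1:629116-630016, had median pileups of 996 to 1652.5 fragments over a local background of 282 to 288, so that their fold enrichment was only 3.48 to 5.77. At the chromosome 13 copy (chr13:109424128-109424340) a median pileup of 650 fragments over 16.6 gave 38.1, and the CTRL libraries read 36.6, 37.9, 36.8 and 33.98. The copy at chr17:22521233-22521572 was classed as single-copy because only 2.34% of its words were mitochondrial, yet 87.1% of the bases in its central window were identical to mitochondrial DNA. Its mean of 40.1 was the highest of that class. The authors removed mitochondrial alignments, and what that step leaves at such copies was not tested.

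Other repeated sites numbered 167, of which 67 had words found over 10 times. The highest mean of all constitutive sites was among them, 41.3 at chr17:25920024-25920397 in intergenic DNA, where words were found 137 times. Of the 167, 49 held many GGAAT words, the unit of another satellite family, in their central window. Reads of such sequence cannot be placed on 1 copy, so values at repeated sites are uncertain.

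Spread between replicates differed by class. The SD within groups of log2 enrichment, after dividing each library by its median over the 556 sites called everywhere, had a median of 0.196 at promoters, 0.214 at single-copy distal sites and 0.539 at alpha satellites. The 5 largest SDs were all alpha satellites (0.743 to 0.823). The smallest were the U2 site (0.0864), SLC19A2, a thiamine transporter (0.0883), DESI2 (0.0985), CD55, a complement regulator (0.110), and chr1:218496651-218497121, 150563 bp from TGFB2 (0.116).

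Median enrichment over the 1323 sites ran from 5.54 to 14.5 between libraries and followed the number of peaks. Pearson's r with log10 of the peak number was 0.968 and Spearman's rho 0.902 over 42 libraries (permutation test, both p = 1e-05, the smallest that 100000 permutations can give; adjusted over 3 relations 3e-05). With the 2 most extreme libraries by distance from the median peak number left out r was 0.959. It was 0.971 within groups and 0.931 without the 4 libraries of few peaks. With background coverage r was -0.256 (permutation p = 0.102) and rho -0.120. Peak number and enrichment come from the same peak calling.

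Classes did not move together. Spearman's rho with the peak number, as a description over the 42 libraries, was 0.883 for the promoter median and 0.937 for the single-copy distal median, but -0.862 for the alpha satellite median, 0.508 for other repeated sites, 0.743 for telomeric repeats and -0.650 for the mitochondrial class. In the 4 libraries of few peaks the promoter median was 5.18 to 5.39, against 11.6 to 14.8 in CTRL, while the alpha satellite median was 13.9 to 14.6, against 7.94 to 9.75 in CTRL. Neither pair of ranges overlapped.

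**Figure D3:**
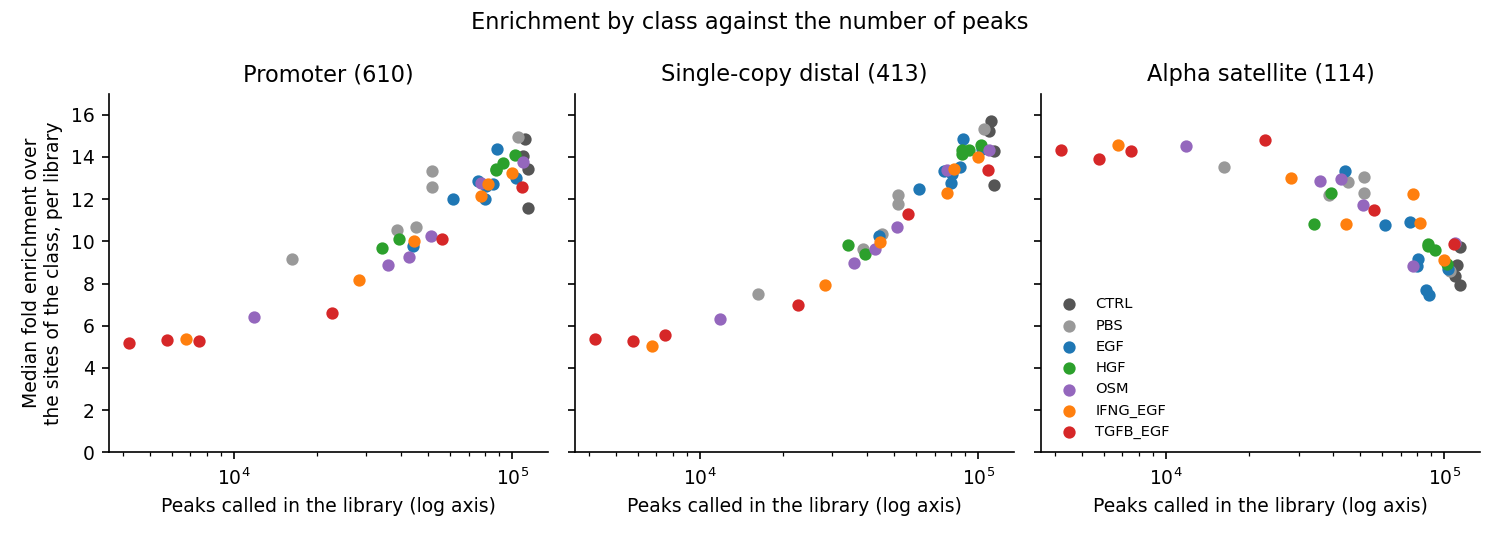
Median fold enrichment of a library over the promoter, single-copy distal and alpha satellite sites (vertical axis) against the number of peaks called in it (horizontal log axis), 1 point per library, coloured by treatment. Promoter and single-copy medians rise with the peak number (rho 0.883 and 0.937) and alpha satellite medians fall (rho -0.862).

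Treatment groups were compared on the library median of log2 enrichment with exact two-sided permutation tests over libraries, permuted within time, and p adjusted by Benjamini-Hochberg over 6 comparisons. TGFB_EGF was lower than EGF by a log2 difference of -0.73 (0.601-fold, n = 6 and 8; exact permutation p = 0.0049, adjusted 0.0294). Values were 5.54, 6.35 and 12.5 (lowest, median, highest) with TGFB_EGF and 9.97, 12.5 and 13.9 with EGF, which overlap. Without the libraries of few peaks the difference was -0.24 (exact permutation, adjusted p = 0.408), and the call was lost in 11 of the 14 fits that left out 1 library. The differences were -0.32 for IFNG_EGF against EGF (adjusted p = 0.213; without the library of few peaks -0.12 and 0.408), 0.12 for EGF against PBS (0.408), 0.10 for HGF against PBS (0.510), -0.17 for OSM against PBS (0.408) and -0.23 for PBS against CTRL (0.314), all by the same exact permutation test. None of the 5 changes in these differences from 24 h to 48 h passed (smallest adjusted p = 0.935 by exact permutation). Within sequencing lanes, read from the file names, a group had at most 2 libraries, and no test was made within them. TGFB_EGF was lower than EGF in each of the 3 lanes that held both (by a log2 difference of -1.02, -0.40 and -0.65), and the lane-adjusted difference was -0.71. Both TGFB_EGF libraries of the first of these lanes, and 1 of 2 in the third, are libraries of few peaks.

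Class medians, as mean ± SD over libraries, were 13.5 ± 1.38 at promoters in CTRL (n = 4), 11.9 ± 2.13 with PBS (n = 6), 12.4 ± 1.29 with EGF (n = 8) and 7.52 ± 3.11 with TGFB_EGF (n = 6). Single-copy distal sites read 14.5 ± 1.34, 11.1 ± 2.65, 13.1 ± 1.39 and 7.98 ± 3.51 in the same order. Alpha satellites ran the other way, at 8.73 ± 0.779, 12.1 ± 1.78, 9.60 ± 1.96 and 13.1 ± 1.97. Of the 6 TGFB_EGF libraries 3 are those of few peaks. Without them the log2 difference between TGFB_EGF and EGF went from -0.81 to -0.29 at promoters, from -0.81 to -0.25 at single-copy distal sites and from 0.46 to 0.26 at alpha satellites. These values are a description of the classes, with no test.

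**Figure D4:**
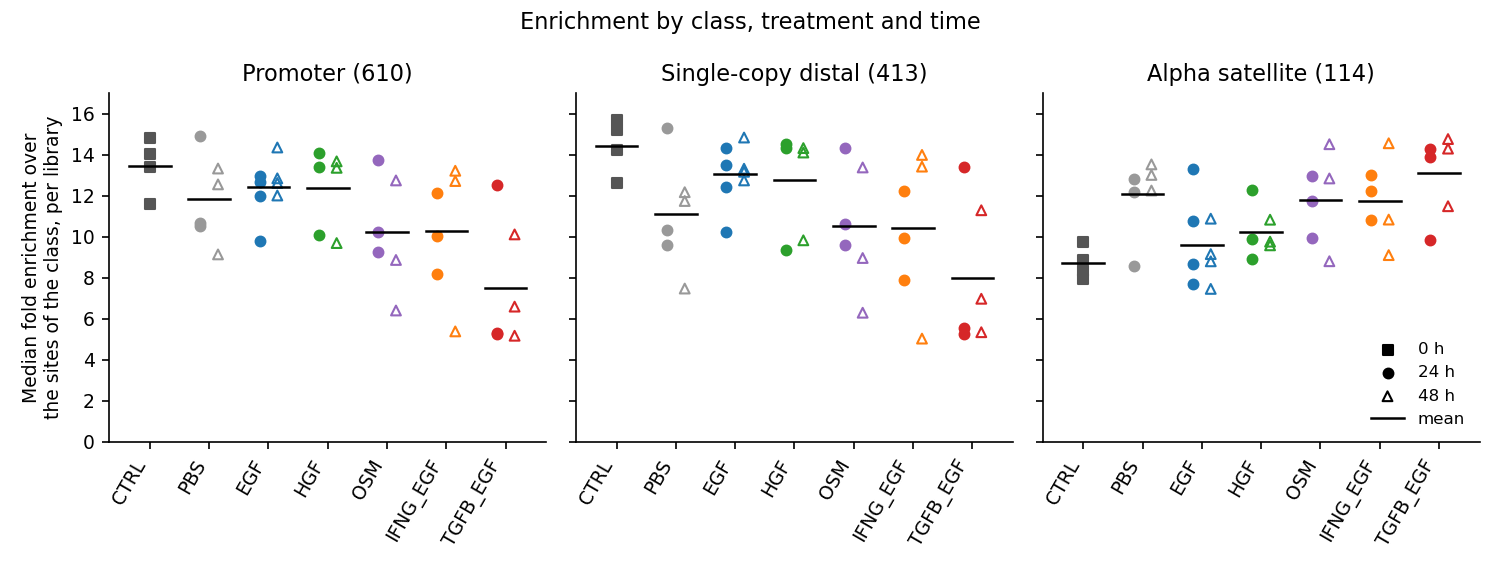
Median fold enrichment of each library (vertical axis) over the promoter, single-copy distal and alpha satellite sites, by treatment (horizontal axis) and time (square 0 h, circle 24 h, open triangle 48 h). Horizontal bars are means over the libraries of a treatment. CTRL is highest in the first and second panels (means 13.5 and 14.5) and lowest in the third (8.73).

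Promoters and distal sites were then compared within each library, as the difference between their medians of log2 enrichment. Distal sites stood higher relative to promoters with EGF, HGF and OSM than with PBS. The difference was 0.14 with PBS (n = 6), 0.03 with EGF (n = 8), 0.06 with HGF and -0.03 with OSM (n = 6 each), so that EGF minus PBS was -0.11 (exact permutation, adjusted p = 0.00735), HGF minus PBS -0.08 (0.018) and OSM minus PBS -0.17 (0.01). PBS was above CTRL by 0.09 (exact permutation, adjusted p = 0.018), and TGFB_EGF below EGF by a difference of -0.18 (0.00735) or, without the libraries of few peaks, -0.11 (0.048). IFNG_EGF minus EGF was -0.04 (exact permutation, adjusted p = 0.445; 0.0007 and 0.970 without the library of few peaks). These comparisons share the PBS or the EGF libraries and are not independent of one another.

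The distal medians mix single-copy and repeated sites, which moved in opposite ways. With single-copy distal sites alone as the distal set, a choice made after seeing the data, the differences were -0.18 for EGF, -0.14 for HGF and -0.15 for OSM against PBS and 0.21 for PBS against CTRL. That for TGFB_EGF against EGF was 0.0025 and for IFNG_EGF against EGF 0.07. These are given without a test. Single-copy distal sites were above promoters in 3 of 6 IFNG_EGF and 5 of 6 TGFB_EGF libraries. They were also above promoters in 8 of 8 EGF libraries, 4 of 4 CTRL libraries, 5 of 6 HGF, 5 of 6 OSM and 1 of 6 PBS libraries. That PBS library held 104875 peaks, and the other PBS libraries at most 51628. The OSM exception had the fewest peaks of its treatment (11798). The HGF exception had 39189, while HGF 48 h replicate C, with 34001, was no exception. EGF libraries held 44099 to 103106 peaks. The part of peak number in this tally was not tested. Restricted to sites called in all 42 libraries, the difference was 0.0036 for EGF against PBS and -0.04 for PBS against CTRL, which turns both directions, and those for HGF and OSM no longer passed. Within lanes the main difference was below 0 for EGF, HGF and OSM against PBS in all 4 lanes that held each pair, and above 0 for PBS against CTRL in the 2 that held both. The difference also moved with the peak number over 42 libraries (r = 0.670, rho = 0.462, permutation adjusted p = 4e-05 and 0.00327; without the 2 farthest libraries r = 0.557, within groups r = 0.805). That relation no longer passed without the 4 libraries of few peaks (r = 0.307, permutation adjusted p = 0.0895). Whether library quality has a part in the promoter and distal differences was not tested further.

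Single sites were tested with limma on log2 enrichment, each library centred on its median over the 556 sites, over all 4851 merged sites with values in at least 2 libraries of every group, with p adjusted by Benjamini-Hochberg over all of them. Each of the 1323 sites was tested. Each count of constitutive sites is set beside the share of all tested sites called in the same direction.

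With EGF 65 constitutive sites were higher than with PBS and 12 lower, which is 4.91% and 0.907% of them, against 10.5% and 1.24% of all sites tested. Both shares are below those of all sites tested. The median log2 difference was 0.0035 over the constitutive sites, which include the centring sites, and 0.075 over all sites tested. The split depends on the settings: no centring gave 4 higher and 2 lower, and array weights called 286 sites, of which 57.7% were higher. Single-copy distal sites made up 55 of the 65 (13.3% of the class) and promoters 3. Of the single-copy sites with AP-1 letters 36 of 226 rose, and of those without 19 of 187. This split was not tested, and the shares of all sites tested with and without these letters were not computed. The TENM2 intron site at chr5:167759155-167760123 was among the 3 of lowest p. Its level relative to the library median (a ratio) was 1.34, 1.29, 1.39 and 1.45 in the CTRL libraries, and had a lowest, median and highest value of 0.571, 0.634 and 1.04 with PBS and of 1.10, 1.26 and 1.48 with EGF. EGF and CTRL libraries all lay above the PBS libraries. The log2 difference was 0.87 (SE 0.122; limma adjusted p = 9.67e-06).

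The VMP1 intron site (chr17:59828848-59829937), 11817 bp from the start of MIR21, a microRNA raised in many cancers, was also higher with EGF. The ratio was 1.10, 1.13, 1.23 and 1.18 in CTRL, 0.486 to 0.875 with PBS (median 0.643) and 0.904 to 1.22 with EGF (median 1.16), with no overlap between EGF and PBS (log2 difference 0.80, SE 0.125). A site on chromosome 8 nearest to ADCY8, an adenylate cyclase, rose by 1.01 (SE 0.158). Promoters were among the sites that fell: ING2, a chromatin reader, by a log2 difference of -0.46 (SE 0.105), and the shared start of CKS1B, a cell cycle kinase subunit, and SHC1, an adaptor of receptor tyrosine kinases, by -0.46 (SE 0.113). At CKS1B and SHC1 the ratio was 0.526 to 0.837 with PBS and 0.382 to 0.596 with EGF, which overlap. Calls at ING2 and at CKS1B and SHC1 were lost under quantile normalization and without centring, and that at VMP1 without centring (limma adjusted p = 0.0553).

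With HGF 18 constitutive sites were higher than with PBS and 0 lower (1.36% and 0% of them, against 2.66% and 0.103% of all sites tested), of which 16 were single-copy distal. The TENM2 site was again among the 3 of lowest p (0.73, SE 0.131; limma adjusted p = 0.00117), but HGF (0.905 to 1.45) and PBS overlapped. The others were chr5:155403009-155403922 (0.62), 389686 bp from KIF4B, and chr1:211515149-211515881 (0.49), near RD3. Before adjustment 116 constitutive sites were higher and 23 lower at p under 0.05. The same fit to HGF and PBS libraries alone called 0 constitutive sites, and quantile normalization left 3. No centring called 0, and array weights called 185 higher and 94 lower.

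With OSM 31 constitutive sites were higher than with PBS and 16 lower (2.34% and 1.21% of them, against 4.49% and 2.0% of all sites tested). Among these, 27 higher and 9 lower were single-copy distal sites, and 7 lower were promoters. The site of lowest p was chr5:134503136-134503952, 22089 bp from JADE2, a chromatin scaffold protein: the ratio was 0.951 to 1.18 with OSM (median 1.04), 0.468 to 0.727 with PBS (median 0.608) and 0.943, 1.06, 1.196 and 0.850 in CTRL (log2 difference 0.82, SE 0.118; limma adjusted p = 2.64e-05). OSM and PBS did not overlap. The TENM2 site rose by 0.84 and a site in ANXA8L1, an annexin with near-identical copies, by 0.67. The promoter shared by ORC6, of the origin recognition complex, and VPS35, of the retromer, was lower (-0.45), as were a site 145196 bp from DUSP10, a MAP kinase phosphatase (-0.50), and an intronic site of PLEC, the cytolinker plectin, on chromosome 8 (-0.41). The balance of higher and lower sites was not stable: it was 21 higher and 28 lower without OSM 48 h replicate A, 64 and 99 with array weights, and 8 and 0 in a fit to OSM and PBS libraries alone. Without centring no constitutive site was called.

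With PBS 22 constitutive sites were higher than in CTRL and 129 lower (1.66% and 9.75% of them, against 1.15% and 21.4% of all sites tested). Single-copy distal sites made up 101 of the 129, which is 24.5% of the class, while 12 promoters were lower and 6 higher, and 14 alpha satellites were higher and 0 lower. Of single-copy sites with AP-1 letters 63 of 226 fell, and of those without 38 of 187, a split that was again not tested and has no background beside it. The TENM2 site fell by a log2 difference of -0.97 (SE 0.146; limma adjusted p = 2.56e-05). A cluster of tRNA genes at chr1:161469169-161470482 read 0.583, 0.738, 0.759 and 0.813 in CTRL and 0.264 to 0.403 with PBS in 5 libraries (log2 difference -1.09, SE 0.171), with no overlap, and an intronic site of DOCK2, a RAC exchange factor, fell by -0.88. CKS1B and SHC1 (0.57) and SYNCRIP, an RNA-binding protein (0.48), were higher. The split depends on the scaling: with no centring 24 sites were higher and 19 lower, with quantile normalization 34 and 105, and with array weights 185 and 280. PBS libraries had 16265 to 104875 peaks and CTRL libraries 109226 to 113805, which do not overlap, and the part of this in the counts was not tested.

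With IFNG_EGF limma called 0 constitutive sites higher than with EGF and 3 lower (0% and 0.227% of them, against 0.103% and 0.701% of all sites tested). All 3 were single-copy distal: an intronic site of KCTD16 at chr5:144189795-144190441 (-0.66, SE 0.120; limma adjusted p = 0.00396), a site on chromosome 8 (-0.54) and an intronic site of TMCC2 (-0.47). At KCTD16 the ratio was 0.363 to 0.846 with IFNG_EGF in 5 libraries and 0.657 to 1.27 with EGF, which overlap. The call at KCTD16 was lost without replicate A of IFNG_EGF at 48 h (-0.52, limma adjusted p = 0.152), and that at TMCC2 in 9 of the fits that left out 1 library. The TMCC2 call was also lost without the 4 libraries of few peaks (limma adjusted p = 0.108), with quantile normalization (0.0753), with a lane term (0.0633), with the compared groups alone (0.0537) and with a value in at least 41 libraries (0.0723). Without the 4 libraries the counts were again 0 higher and 3 lower, and KCTD16 stayed called (-0.66). Without centring 0 sites were called, and with array weights 13 higher and 32 lower. At unadjusted p under 0.05 there were 95 higher and 112 lower. The STAT2 promoter was not called.

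With TGFB_EGF 235 constitutive sites were higher than with EGF and 128 lower (17.8% and 9.67% of them, against 8.08% and 5.73% of all sites tested), and the directions differed by class. There were 103 of 114 alpha satellites, 108 of 167 other repeated sites and 7 of 7 of the mitochondrial class higher, and 79 promoters and 47 single-copy distal sites lower. Without the 4 libraries of few peaks 0 sites were called in either direction. At chr1:218496651-218497121 the ratio was 0.828 to 1.31 with TGFB_EGF (median 1.03), 1.503 to 1.70 with EGF (median 1.64) and 1.56, 1.48, 1.53 and 1.45 in CTRL, with no overlap (log2 difference -0.63, SE 0.0818; limma adjusted p = 2.72e-05; -0.49 and 0.0505 without the 4 libraries). TGFB2, the nearest protein-coding gene, encodes a TGF-beta ligand, and a link between this distant site and the gene was not tested. The promoter of FAF2, of the endoplasmic reticulum degradation pathway, was lower by -0.59 (SE 0.0959), with 0.647 to 0.989 against 1.16 to 1.38. An intronic site of COL4A2, a basement membrane collagen, was higher (0.51, SE 0.0890), with 0.743 to 0.989 against 0.498 to 0.715, but its difference was -0.14 without centring. An alpha satellite at chr1:124757526-124757946 was higher by 1.49. With no centring the split was 78 higher and 980 lower, with quantile normalization 146 and 239, and with array weights 286 and 370. Without TGFB_EGF 24 h replicate A, 263 were higher and 257 lower.

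**Figure D5:**
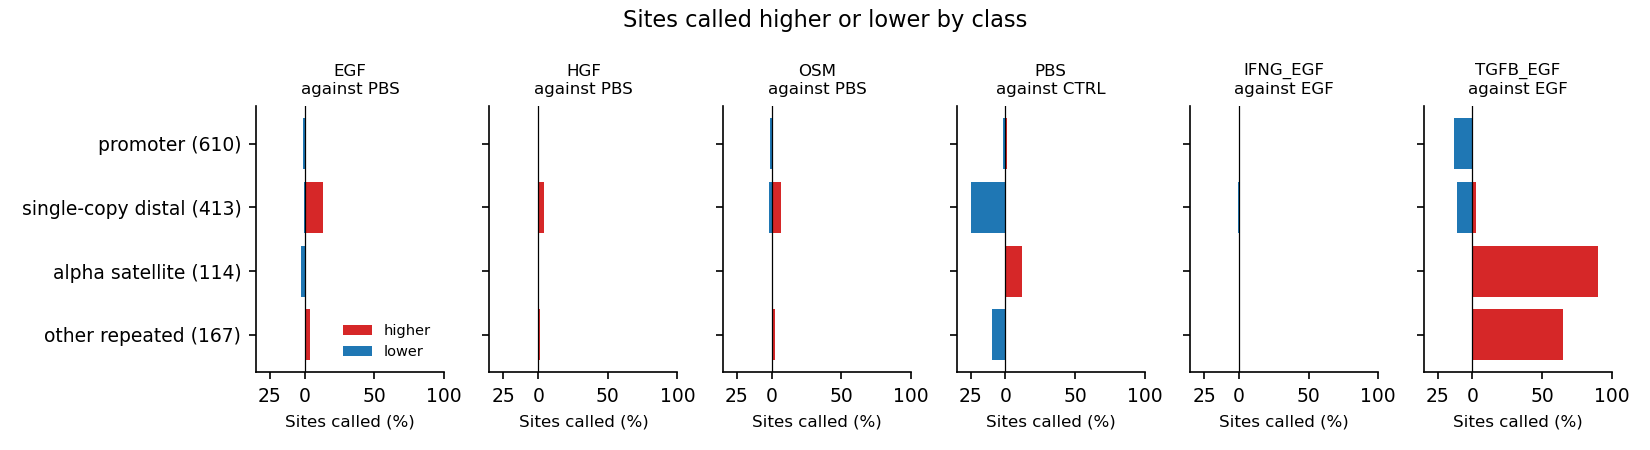
Percentage of the promoter, single-copy distal, alpha satellite and other repeated sites (rows, with their number) called higher (red, to the right) or lower (blue, to the left) by limma in the 6 comparisons (panels). Of single-copy distal sites 13.3% were higher with EGF than with PBS and 24.5% lower with PBS than in CTRL. The shares of all sites tested, which mix every class, were 10.5% and 21.4%, and no share was computed for other single-copy distal sites. Of alpha satellites 90.4% were higher with TGFB_EGF than with EGF, and 0 sites were called in that comparison without the 4 libraries of few peaks.

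A test of whether any of these differences changed between 24 h and 48 h called 0 of the 1323 sites in each of the 5 matched comparisons.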

How the data were processed

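ATACseq of MCF10A cells was analysed in 42 libraries of 13 groups, which the study describes as biological replicates. Per the labels and the methods, the authors trimmed reads with Trimmomatic 0.36.5, aligned them to hg38 with Bowtie2 2.3.4.1, removed mitochondrial and duplicate alignments (Picard) and called peaks per library with MACS2 2.1.1.20160309.5 at a q-value of 0.01, with no control library. The deposited peak files hold a fold enrichment (a ratio) in column 7 and −log10 p and q in the next columns. The authors removed low-quality ATACseq samples before their own analysis, which left fewer IFNG with EGF replicates than the 3 per time used here. The paper reports 13 ATACseq samples that failed its quality check because a low share of their reads lay in peaks. Libraries that failed this check can thus be among the 42 and in the rule that chose the sites. Leaving out the libraries of few peaks need not remove all of them. Which ones these are was not examined. The deposited score in the fifth column is a scaled −log10 q-value and was not used. The deposited signal values are not read counts, so the depth is unknown, and only a background coverage could be recovered from columns 7 and 8.

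Peaks were merged at 1 bp overlap, and a library's highest peak gave its value in a site. Starts came from GENCODE 44. Words of 31 bases were counted over hg38, and letters were searched on both strands within 100 bp of the summit: CCAAT for NF-Y, GGGCGG for SP, CCGGAAG for ETS, TGANTCA for AP-1, and CTCF and TATA by name. A tandem period near 171 bases with at least 45% identity marked alpha satellites, 6 telomere words telomeric repeats and 50% mitochondrial words the mitochondrial class. Library values were compared with exact permutation tests, and single sites with limma 3.58.1 in R 4.3.3, tested on simulated data first, over all groups in 1 fit. Sites lacking a peak in a library were missing there. Python 3.11.15, numpy 2.4.6, pandas 2.3.3 and pysam 0.24.0 were used.

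Sites were named by rule: the 10 highest promoters and distal sites, the 5 largest and smallest SDs, up to 3 called sites per direction and comparison, up to 4 genes per list and the leading repeat or mitochondrial copies. The sites and lists were chosen with earlier results of these data known. Alternatives were other thresholds, overlaps and normalizations, a replicate block, a lane term, array weights and leaving out each library. Some items are not reported here.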

Additional observations from a re-analysis of the deposited data

Results flagged for a closer look

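In 4 of 183 groups of 4 libraries at named sites, and in 0 of 24 groups of library values, 1 library stood apart from the other 3 by Dixon's gap. Chance marks about 1 in 20 groups. Values are ratios of fold enrichment to the library median. At ATP5F1B, EGF 48 h replicate C read 1.55, and the others 1.32, 1.32 and 1.35. At a telomeric repeat site, EGF 24 h replicate B read 3.36, and the others 2.58, 2.60 and 2.64. At the alpha satellite chr10:41265133-41265891, EGF 48 h replicate C read 0.491, and the others 0.985, 1.00 and 1.11. At DESI2, EGF 24 h replicate C read 1.30, and the others 1.18, 1.18 and 1.19.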

How the results depend on the processing

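The threshold set the number of sites: 556 at 42 libraries, 2410 at 40 and 466 at a −log10 q of at least 5, and 1323 to 2046 when 1 library was left out, the highest without TGFB_EGF 48 h replicate B. The promoter share was 38.8% at 42 libraries, 28.97% at the stricter q, 52.8% with starts of every biotype, 59.6% without distal sites of repeated words (chosen after seeing the data) and 41.8% (without IFNG_EGF 48 h replicate C) to 51.1% (without TGFB_EGF 48 h replicate B) with 1 library left out. Median width was 700 bp for single peaks and 992 to 1051 bp with 1 library left out.

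The TGFB_EGF library median difference was -0.24 without the 4 libraries of few peaks (chosen after seeing the data), -0.73 with a replicate block, and -0.93 to -0.63 with 1 library left out. The exact permutation adjusted p was 0.408 without the 4 libraries and 0.222 with the block, and the call was lost in 11 of the 14 fits that left out 1 library. The promoter and distal difference, over the sites called in all 42 libraries, was -0.19 for IFNG_EGF (now past the threshold), 0.0036 for EGF, -0.0225 for HGF, -0.15 for OSM and -0.0406 for PBS against CTRL. Against single-copy distal sites it was 0.0716 for IFNG_EGF and 0.0025 for TGFB_EGF, and with a replicate block 0.0814 for PBS against CTRL, where the exact permutation adjusted p went from 0.018 to 0.0889 and the call was lost. Its relation with peak number was r = 0.307 without the 4 libraries.

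Counts of called sites moved most. Array weights gave 45 for IFNG_EGF, 656 for TGFB_EGF, 286 for EGF, 279 for HGF, 163 for OSM and 465 for PBS against CTRL. No centring gave 0, 1058, 6, 0, 0 and 43 in that order, and turned the COL4A2 difference to -0.14 (-0.1350). Without the 4 libraries TGFB_EGF had 0. Quantile normalization left 3 for HGF and 17 for OSM, the compared groups alone 0 and 8, and for PBS against CTRL a lane term and a value in at least 41 libraries gave 89 each. With 1 library left out the counts ran from 0 (without IFNG_EGF 48 h replicate A) to 5 (without replicate B) for IFNG_EGF, and from 199 to 520 for TGFB_EGF, where leaving out 24 h replicates B or C or 48 h replicates A or B gave 199, 205, 240 and 227. They ran from 43 to 128 for EGF, 7 to 49 for HGF, 27 to 53 for OSM and 82 to 251 for PBS against CTRL. Leaving out PBS 24 h replicate A gave the highest count for EGF, HGF and PBS against CTRL, and leaving out PBS 24 h replicate C the lowest of these and of OSM (shared with CTRL replicate C for PBS against CTRL). Other single libraries that moved a count by over 1.5 times were PBS 24 h replicate B (EGF 51, HGF 10), PBS 48 h replicate C (EGF 48), HGF 24 h replicates A, B and C and 48 h replicate A (HGF 9, 9, 30 and 10) and OSM 24 h replicate B (OSM 28). For PBS against CTRL, the counts were 97, 82 and 87 without CTRL replicates A, C and D, and 99 and 92 without PBS 24 h replicate B and 48 h replicate C. The cause of these changes was not tested. The median over all sites tested shifted by -0.51 (log2) for TGFB_EGF with no centring. Of 240 checks of named sites, 196 kept direction and call, 43 kept direction only and 1 turned.

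The labels do not say whether replicate letters mark a shared batch. Deviations of libraries with the same letter in different groups correlated at a median of 0.106 (119 of 237 over 0.1) and those with other letters at -0.0678 (249 of 576), and 17 of 42 libraries were most like their own letter. The block moved no count of called sites by over 1.5 times, and it changed the calls of the TGFB_EGF library median, of the PBS and CTRL promoter and distal difference and of the TMCC2 site (limma adjusted p = 0.0793).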
